A study of Mus musculus with 30 samples.

Results

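The mRNAs described here encode the proteins of the cytosolic ribosome, the particle that translates every nuclear-encoded mRNA. They were chosen by gene symbol: Rpsa, Rplp0, Rplp1, Rplp2, and every symbol made of Rpl or Rps, a number and at most 1 trailing letter (a, l or x). Pseudogene rows and the Rps6k kinases were left out. The rule found 194 Ensembl transcripts of 78 genes among the 20423 transcripts listed in the 4 count tables used. Of these, 103 transcripts of 75 genes are annotated as protein-coding, 52 as retained-intron forms, 27 as other processed transcripts and 1 as a target of nonsense-mediated decay, and 11 transcripts of 3 genes, Rpl13a and Rpl18 among them, are absent from the annotation used. The tables did not list the same members: 163 were in the table of inputs, 169 in the PTBP1 table, 171 and 151 in the naive and injured nucleolin tables.

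RNA was sequenced from axoplasm, the cytoplasm released from mouse sciatic nerve, with 10 nerves pooled for each library. The libraries form 10 groups of 3, which the labels describe as independent biological repeats. The injured groups came from nerves 7 days after a crush at mid-thigh: nucleolin immunoprecipitation (IP), peptide-blocked nucleolin IP, PTBP1 IP, peptide-blocked PTBP1 IP, and input. The naive groups are the same 5 materials from uninjured nerves. In a blocked IP the antibody was first incubated with its own blocking peptide, which makes it the background of the IP. Nucleolin and PTBP1 are RNA-binding proteins, and PTBP1 is known for binding pyrimidine-rich RNA. No strain, genotype, age or sex was used here. Axoplasm extracted from whole nerve also holds RNA of the nerve's other cells, so fewer cells of a type and less RNA per cell cannot be told apart in any value below.

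Each ribosome holds 1 copy of nearly every ribosomal protein, in a small subunit that reads the mRNA and a large subunit that joins amino acids. Most of these mRNAs begin with a C followed by a run of pyrimidines, the terminal oligopyrimidine (TOP) motif, through which their translation is switched together by the mTOR kinase and the LARP1 protein. Ribosomal protein mRNAs are among the abundant mRNAs of axons, and locally made ribosomal proteins can be built into axonal ribosomes.

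The first 30 bases of 7 transcripts, picked after the results were seen, are shown with the 2 forms of Rps24 side by side. The longest run of C and T is in capitals, or the first where runs tie, as in Rps12, Rpsa and Rpl37. Transcripts of Rps9, Rps25, Rpl36, Rpl15 and Rpl35, also named below, are not shown. Their longest runs have 4, 2, 6, 4 and 5 bases, so the 7 do not stand for all coding members. The sequences come from the GENCODE M21 transcripts on GRCm38. Their annotated starts need not be the bases at which transcription begins in nerve.

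Rps24 ENSMUST00000169826: CTCTTTTCCTCCTCTCCagctccggcgccg
Rps24 ENSMUST00000112384: CTTgcgcgttgatatgattggtcggcagtg
Rps12 ENSMUST00000073926: cgccgccgaCTTgcgcggaggcggaagctc
Rpsa ENSMUST00000035105: gaggCTTTTTCCggagcggaagttctccct
Rplp1 ENSMUST00000008036: gaTCTTTTCCTCagctgccgccaaggtgct
Rps27 ENSMUST00000170122: gCTCCTTTCCggcggtgacgacctccctac
Rpl37 ENSMUST00000045356: CTCTTCCggtctctttggcctcgccggtag

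A run of at least 7 bases of C or T, searched on the transcript strand only, lay within the first 30 bases of 35 of the 103 protein-coding member transcripts (34.0%). It lay there in 14.8% of the other 12538 listed protein-coding transcripts. In RefSeq promoter windows of 30 bases on either side of the start (GRCm38.p6), 43 of 68 member windows, which cover 57 of the 78 genes, held such a run (63.2%), and 33.8% of all 32851 windows did. Coding members were also short, with a median length of 738 bases against 2837 bases for the other listed coding transcripts. Among coding members tested in input, the median log2 fold change of injured over naive was -0.42 for the 31 with the run and -0.40 for the 60 without it.

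The library facts that touch these mRNAs are few. Library totals over listed transcripts ran from 7536033 counts in injured input 1 to 22919174 in a naive blocked PTBP1 library. A single transcript listed as Yam1 held 5.37 to 38.1% of all counts in an injured input and 0.482 to 3.54% in a naive one, so levels below are CPM, counts scaled to a common library size by the trimmed mean of M values (TMM). Cell type markers moved strongly with injury in the inputs: the summed level of 9 macrophage markers was 6911 to 9105 CPM in injured and 1089 to 1784 CPM in naive inputs. The 7 listed of 9 Schwann cell and myelin markers summed to 4575 to 7053 CPM in injured and 26503 to 49515 CPM in naive inputs. The 7 listed of 9 neuron and axon markers summed to 148 to 202 CPM in injured and 646 to 944 CPM in naive inputs, while Nefh and Prph were not listed. The 5 markers of dividing cells summed to 499 to 691 CPM in injured and 24.4 to 39.1 CPM in naive inputs. Summed levels of 4 of 5 adipocyte markers (366 to 450 CPM in injured and 1921 to 2270 CPM in naive inputs), 5 fibroblast markers (9842 to 13041 and 17631 to 23753 CPM) and 4 red blood cell markers (83.7 to 116 and 507 to 711 CPM) were also apart. The part of these shifts in the results below was not tested. In PTBP1 libraries many transcripts had no count: 1.64 to 19.3% of those tested were at 0 in an IP and 15.8 to 30.4% in a blocked IP.

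The comparison of injured with naive input asks which ribosomal protein mRNAs differ in abundance in nerve axoplasm a week after a crush. Their summed level did not separate the groups. It was 20794, 21020 and 17984 CPM in injured inputs and 18490, 18364 and 20658 CPM in naive inputs, and the groups overlapped. Rps12 and Rplp1, abundant members called higher below, were left out of a second sum after their values were seen. Without them the members summed to 14856, 14485 and 14072 CPM in injured inputs. In naive inputs the same sum was 16453, 16383 and 17989 CPM. Leaving out members called higher lowers the injured sum more than the naive one. The second sum therefore cannot show whether the other members fell. Without the Yam1 transcript in the denominator, members held 1.8 to 2.65% of the counts in injured inputs and 2.15 to 2.25% in naive inputs, which overlapped as well. Protein-coding transcripts of the small subunit summed to 10410, 9995 and 8463 CPM in injured inputs and to 7534, 7930 and 9120 CPM in naive inputs. Those of the large subunit summed to 9977, 10659 and 9163 CPM in injured inputs and to 10572, 10051 and 11220 CPM in naive inputs. Both pairs of groups overlapped.

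Of 155 member transcripts tested, from 77 genes, 11 rose (7.1%) and 23 fell (14.8%) at an edgeR adjusted p under 0.05. The background over all 14095 transcripts tested was 14.5% higher and 13.4% lower. The share that fell was thus near the background, and the share that rose was below it. The median log2 fold change of the members was -0.37, against 0.00 for all transcripts tested, and 69.7% of members lay below 0, against 49.9%. All injured libraries lay above all naive ones for 19 members (12.3%), against 22.5% of all transcripts, and below them for 37 (23.9%), against 21.9%. The other 8 of the 163 listed members had counts too low to be tested. Of the 34 calls, 12 held in each of the 12 alternative fits of single transcripts, 2 higher (Rps24 and Rps9) and 10 lower (among them Rpl13a, Rpl15, Rpl23a, Rpl27, Rpl36, Rpl37, Rpl38, Rps25 and Rps27).

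The split of the calls depended on how libraries were scaled. With plain library totals, 2 members rose and 17 fell, while the median of all transcripts moved to -0.26 and that of the members to -0.66. With totals that leave out Yam1, Lars2 and Gm15564, an alternative added after the data were seen, 15 rose and 16 fell, and the median of all transcripts moved to 0.19. Leaving out injured input 2, naive input 1 or naive input 2 left 15, 20 and 19 calls. None of these counts was set against the share of all transcripts called in the same fit.

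By subunit, among 52 coding transcripts of the large subunit, 2 rose (3.85%) and 12 fell (23.1%), the median log2 fold change was -0.71, and 82.7% lay below 0. Among 39 coding transcripts of the small subunit, 7 rose and 7 fell (17.9% each), and the median was -0.04. Of all transcripts tested, 14.5% rose and 13.4% fell. The difference between the subunits was not tested.

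**Figure D1:**
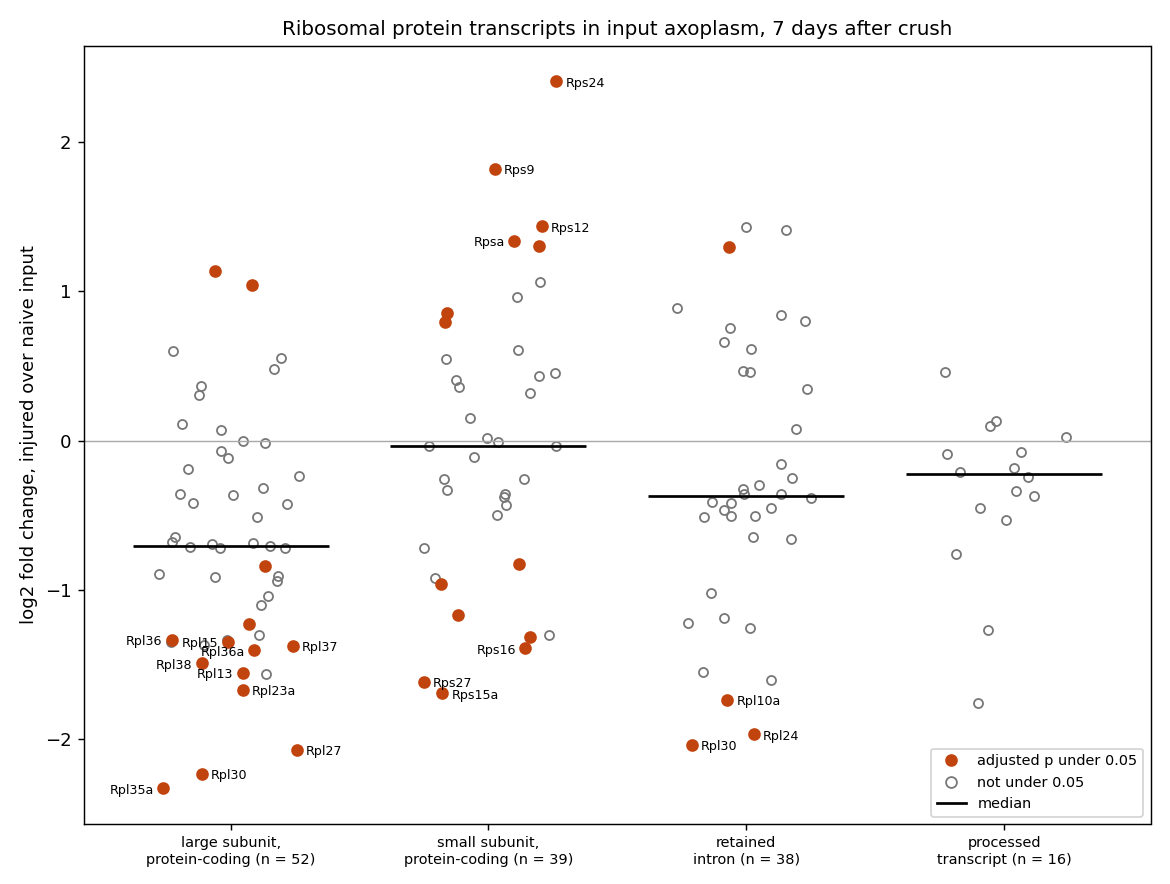
Log2 fold change of injured over naive input for each ribosomal protein transcript tested, by class. Filled points passed an edgeR adjusted p of 0.05, and black lines are medians: -0.71 for the 52 large-subunit coding transcripts, -0.04 for the 39 of the small subunit, -0.37 for the 38 retained-intron forms and -0.23 for the 16 processed transcripts. Names mark the called transcripts with the larger changes.

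The proteins of the P stalk, which recruits the elongation factors to the ribosome, were called in 1 case of 3 among coding transcripts. Rplp1, at chr9:61913284-61914542 on the minus strand, stood at 2451, 3231 and 1695 CPM in injured inputs and at 906, 1014 and 1442 CPM in naive inputs. All 3 injured libraries lay above all 3 naive ones, and Rplp1 rose by 1.13 ± 0.28 on the log2 scale (SE, adjusted p = 0.0101). The call was lost with plain library totals and without injured input 2 or naive input 2. Rplp0, the protein on which the stalk is built, had 669, 659.9 and 563 CPM in injured inputs and 477, 399 and 412 CPM in naive inputs. Its groups did not overlap either, but its log2 fold change of 0.55 ± 0.21 did not pass the test (adjusted p = 0.0645).

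Rplp2, the partner of Rplp1 in the stalk, was listed with 2 coding transcripts at much lower levels. ENSMUST00000084434 had 49.2, 20.6 and 15.1 CPM in injured inputs and 53.7, 25.2 and 11.7 CPM in naive inputs, which overlapped throughout. ENSMUST00000106003 had 1.48, 2.02 and 2.18 CPM in injured inputs and 3.85, 2.51 and 1.07 CPM in naive inputs, again overlapping. Its retained-intron form ENSMUST00000137307 was the 1 non-coding form of any member to rise: it had 21.02, 17.9 and 11.4 CPM in injured inputs and 7.06, 5.59 and 7.73 CPM in naive inputs (log2 fold change 1.30 ± 0.41, adjusted p = 0.032). That call was lost in 6 of 12 alternatives, with library totals and with each input but injured input 3 left out.

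Rpsa, a small-subunit protein also known as the laminin receptor precursor, lies at chr9:120127689-120132369 on the plus strand. It had 1587, 1312 and 783 CPM in injured inputs and 633, 504 and 319 CPM in naive inputs. The groups did not overlap, and Rpsa rose by 1.34 ± 0.31 (adjusted p = 0.00688), a call lost only with plain library totals.

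Rps24, a small-subunit protein needed for processing the small ribosomal RNA, gave the largest rise among called members, in 1 of its 2 listed coding transcripts. ENSMUST00000169826, at chr14:24490718-24495845 on the plus strand, stood at 750.1, 789.8 and 436 CPM in injured inputs and at 119, 127 and 127 CPM in naive inputs. Every injured library lay far above the narrow naive range, and the log2 fold change was 2.41 ± 0.26 (adjusted p = 4.58e-05). It ranged from 2.06 to 2.63 over the 12 alternatives, all of which called it. ENSMUST00000112384, at chr14:24490681-24495432, had 61.1, 63.2 and 43.7 CPM in injured inputs and 71.3, 69.1 and 77.1 CPM in naive inputs. Its groups were apart in the opposite direction, but its log2 fold change of -0.38 ± 0.24 did not pass (adjusted p = 0.278).

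The annotated coding sequence of the 2 Rps24 transcripts is the same. They differ at the start, where ENSMUST00000112384 begins 37 bases upstream without a long pyrimidine run, and at the end, after exon 4. The last 9 bases of exon 4 are shown in lower case and exon 5 in capitals.

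ENSMUST00000169826 (519 bases): ggcaaaaagTGAGTGGAGATTGGATACAG
ENSMUST00000112384 (468 bases): ggcaaaaagTGA

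Exon 5 of ENSMUST00000169826 has 20 bases and is followed by a sixth exon of 71 bases at chr14:24495775-24495845. The annotation ends ENSMUST00000112384 at its stop codon, the TGA that opens exon 5. Together ENSMUST00000169826 carries 88 bases after exon 4 that the other lacks. The labels and files do not say how reads were divided between the 2 transcripts.

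Rps12, whose transcript lies at chr10:23785205-23787188 on the minus strand, had the highest level per length of the coding members on average over the 6 inputs. It had 3487, 3304 and 2217 CPM in injured inputs and 1131, 967 and 1228 CPM in naive inputs, with no overlap (log2 fold change 1.44 ± 0.25, adjusted p = 0.00108). The call was lost only with plain library totals. Rps12 took 16.8, 15.7 and 12.3% of the summed member level in injured inputs and 6.12, 5.27 and 5.94% in naive inputs.

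Other small-subunit transcripts rose from lower levels. Rps9, which lies near the mRNA entry channel, had 41.8, 69.8 and 28.1 CPM in injured inputs and 10.6, 11.7 and 17.1 CPM in naive inputs (log2 fold change 1.82 ± 0.38, adjusted p = 0.00351). These values are of ENSMUST00000006496, and the other 2 coding transcripts of Rps9 had log2 fold changes of 0.61 and -0.72 (adjusted p = 0.37 and 0.446). Rps15 rose in 1 of 2 coding transcripts, by 0.79 ± 0.25 (adjusted p = 0.0346), a call that held in 7 of 12 alternatives. On the large subunit, Rpl27a rose by 1.04 ± 0.24 (adjusted p = 0.00674), with 222, 232 and 147 CPM in injured inputs and 102, 105 and 83.4 CPM in naive inputs. The Rpl13a transcript ENSMUST00000152970, which is not in the annotation used, rose by 1.18 ± 0.30 (adjusted p = 0.0111). This Rpl13a call held in 10 of 12 alternatives, and the Rpl27a call was lost only with plain library totals. Rpl13a is known outside the ribosome as part of an interferon-induced complex that blocks translation in human monocytes.

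**Figure D2:**
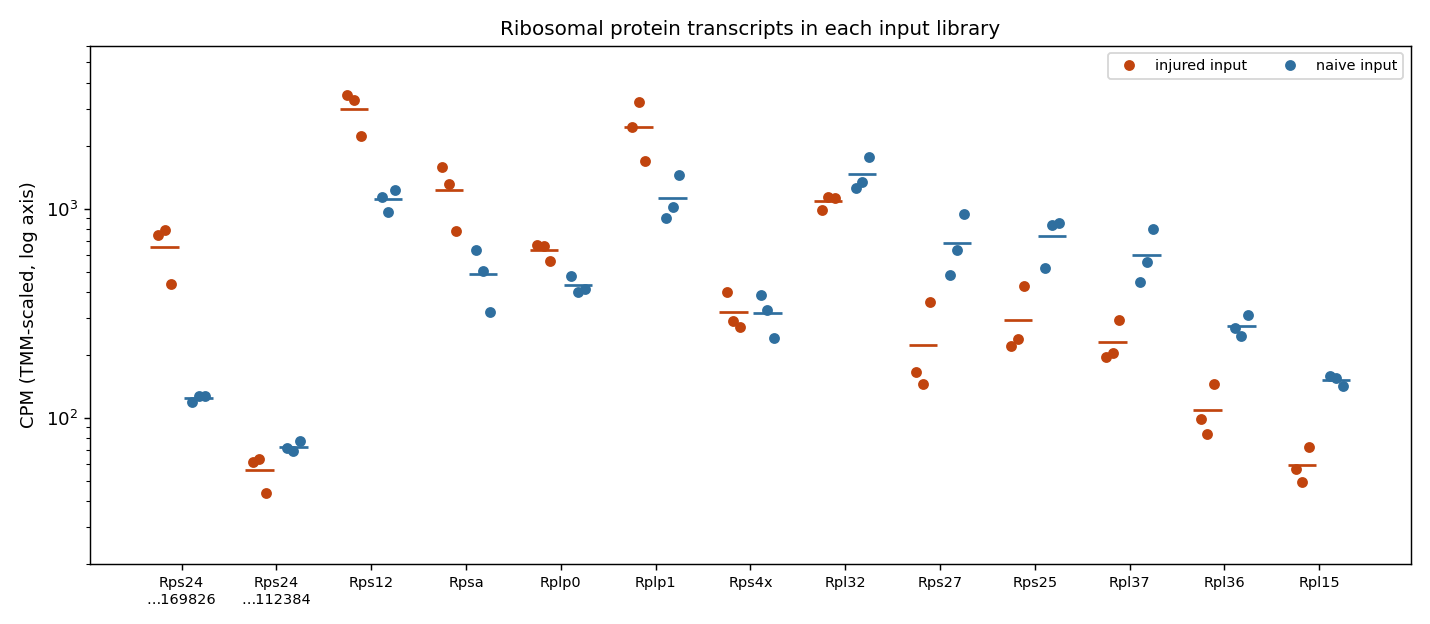
CPM (log axis) of selected ribosomal protein transcripts in each of the 3 injured and 3 naive input libraries, with horizontal lines at the group means. The Rps24 transcript ENSMUST00000169826 stood at 436 to 789.8 CPM in injured and 119 to 127 CPM in naive inputs, whereas Rps27, Rps25, Rpl37, Rpl36 and Rpl15 lay lower in every injured than in every naive library.

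Of the mRNAs that fell, several were abundant. Rps27, a zinc-finger protein of the small subunit, lies at chr3:90212671-90213651 on the minus strand. It had 165, 144 and 359 CPM in injured inputs and 483, 632 and 939 CPM in naive inputs, and fell by 1.62 on the log2 scale (SE 0.36, adjusted p = 0.00508). Its paralog Rps27l had 3.96, 1.13 and 1.77 CPM in injured inputs and 2.504, 3.39 and 1.89 CPM in naive inputs, and these overlapped (log2 fold change -0.25 ± 0.66, adjusted p = 0.81). Rps4x and its paralog Rps4l, Rps4l listed as a processed transcript, had log2 fold changes of 0.02 ± 0.25 and 0.03 ± 0.39.

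The mRNAs next described are set out for their levels and were picked after their values were seen. Rpl37, at chr15:5116645-5119140 on the plus strand, had 196, 203 and 295 CPM in injured inputs and 445, 557 and 796 CPM in naive inputs, and fell by 1.37 (SE 0.27, adjusted p = 0.00253). Rps25, a small-subunit protein that some viral RNAs need to start translation, had 221, 237 and 427 CPM in injured inputs and 519, 831 and 857 CPM in naive inputs, and fell by 1.32 (SE 0.30, adjusted p = 0.00592). For both, the injured libraries lay below the naive ones without overlap. Rpl36 and Rpl15 fell by 1.33 and 1.35 on the log2 scale, with adjusted p of 0.00198 and 0.00115.

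The 3 largest falls of called transcripts were at levels under 12 CPM in every input. The Rpl13a transcript ENSMUST00000125074 fell by 2.90 (SE 0.68, adjusted p = 0.00744), with 1.73, 0.404 and 1.30 CPM in injured inputs and 11.2, 9.25 and 3.94 CPM in naive inputs. Rpl35a, whose loss causes Diamond-Blackfan anaemia in people, fell in 1 of 3 coding transcripts, ENSMUST00000078804, by 2.33 (SE 0.69, adjusted p = 0.0244), with 0.494, 0.484 and 1.24 CPM in injured inputs and 5.59, 3.97 and 2.35 CPM in naive inputs. The other 2, among them the most abundant of the 3, had log2 fold changes of -1.10 and -0.69 (adjusted p = 0.348 and 0.368). Transcripts of Rpl30, Rpl27, Rps15a and Rpl23a fell by 2.23, 2.07, 1.69 and 1.67, with adjusted p of 0.0237, 0.00744, 0.0125 and 0.00569. Rpl30, Rpl27 and Rps15a each had a second coding transcript that did not pass, at -1.37, 0.31 and -0.25. The coding calls of Rpl35a, Rpl30 and Rps15a held in 9, 8 and 10 of 12 alternatives. Rpl23a sits at the exit of the tunnel through which the new protein leaves. Rpl38, which mouse embryos need to translate a subset of Hox mRNAs, fell in 2 of 3 coding transcripts tested, by 1.22 and 1.49 (adjusted p = 0.00605 and 0.0239), and the third was at -1.57 (adjusted p = 0.222). Retained-intron forms of Rpl30, Rpl24 and Rpl10a fell by 2.04, 1.97 and 1.74, with adjusted p of 0.0373, 0.0497 and 0.0445. Each of those 3 forms averaged under 6 CPM in both groups. Their calls held in 6, 5 and 5 of 12 alternatives, and that of the Rpl38 fall of 1.49 in 7.

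Non-coding forms made up little of the signal. Retained-intron, processed and decay forms took 1.36 to 1.59% of the annotated member level in injured inputs and 1.35 to 1.76% in naive inputs. Of 38 retained-intron transcripts tested, 1 rose (2.63%) and 3 fell (7.89%), both shares below the 14.5 and 13.4% of all transcripts. None of 16 processed transcripts passed in edgeR, and 1 had an unadjusted p under 0.05. Both kinds were tested for 31 genes. The widest gap was in Rpl35a, where the coding transcript ENSMUST00000078804 fell by 2.33 while its retained-intron form had a log2 fold change of 0.47 (adjusted p = 0.523). Next came Rpl41, Rpl12, Rpl36a, Rpl27, Rpl5, Rps19 and Rps18, whose widest pairs differed by 1.76 to 2.32 in either direction. None of the non-coding partners in those 8 pairs passed the test, and the gaps themselves were not tested.

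Levels per length spanned more than 4 orders of magnitude across the 91 coding transcripts tested, some of which are lesser forms of a gene. The ribosome uses the products of the genes in nearly equal number, which levels of single transcripts do not measure. The highest means over the 6 inputs were those of Rps12 with 4195, Rplp1 with 3587, Rpl32 with 2457, Rps29 with 1591, Rpl39 with 1551, Rpl37a with 1321, Rps27 with 1315 and Rps26 with 1244 CPM per kb. The order differed between conditions: Rps12 had 6127, Rplp1 4928 and Rpl32 2096 CPM per kb in injured inputs, and 2262, 2246 and 2818 CPM per kb in naive inputs, where Rpl32 was the highest. The median was 24.8 CPM per kb. The lowest were a 5130-base Rps15a transcript with 0.241, Rpl10 with 1.07, an Rpl30 transcript with 1.23 and an Rpl35a transcript with 1.46 CPM per kb. Rps15a, Rpl30 and Rpl35a each had a higher coding transcript, at 2.95, 5.38 and 12.1 CPM per kb. Ribosomal protein genes have many near-identical pseudogene copies, and the labels and files do not say how reads matching several copies were counted, so these levels and the changes of scarce members are uncertain. The 8 most abundant members of each library took 51.0 to 60.5% of the summed member level in injured inputs and 44.9 to 50.5% in naive inputs.

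Other genes of the translation machinery were counted in the same fit. Of 48 tested transcripts of 28 genes on a list of ribosome partners and other TOP mRNAs, 7 rose (14.6%) and 2 fell (4.17%), with a median log2 fold change of 0.16. The share that rose was at the background of 14.5%. Pabpc1, the cytoplasmic poly(A)-binding protein, averaged 946 ± 183 CPM in injured and 387 ± 129 CPM in naive inputs (SD, n = 3 each) and rose by 1.29. A processed transcript of Gnb2l1, which encodes the ribosome-bound scaffold RACK1, rose by 2.40, and Eif2s3x and Eef1b2 rose by 1.34 and 1.26. A coding transcript of Vim and a retained-intron form of Gas5 were those that fell, by 1.08 and 1.05. The other Gas5 forms tested, at -0.94, -0.38 and 0.47, did not pass. Neither did the coding transcript of Gnb2l1, at 0.59, or a retained-intron form of Vim, at 0.60. Of 71 mitochondrial ribosomal protein transcripts, 2 rose (2.82%) and 11 fell (15.5%), with a median of -0.24, and the share that fell was near the background of 13.4%. Mrpl42 averaged 166 ± 40 CPM in injured and 518 ± 30 CPM in naive inputs (SD, n = 3 each) and fell by 1.64.

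Comparing an IP with input asks whether ribosomal protein mRNAs are enriched or depleted with the protein the antibody recovers. On TMM-scaled levels they were lower in every IP library than in any input, while by share of counts without Yam1 the injured nucleolin IPs and inputs overlapped. On the scale of the 12 nucleolin libraries and 6 inputs together, 128 members summed to 8054, 7514 and 14885 CPM in injured nucleolin IPs, against 24281, 25507 and 22467 CPM in injured inputs. In naive nerve they summed to 6651, 7909 and 15269 CPM in nucleolin IPs, against 23208, 21722 and 22834 CPM in inputs. No IP library reached the lowest input on this scale. On the scale of the 12 PTBP1 libraries and 6 inputs, 147 members summed to 3323, 4162 and 9051 CPM in injured PTBP1 IPs, against 19029, 20600 and 17492 CPM in injured inputs. In naive nerve the sums were 5966, 5701 and 14822 CPM in PTBP1 IPs, against 18750, 17834 and 19268 CPM in inputs. In each of the 4 IP groups the library numbered 3 was the highest. These sums rest on the TMM factors, which were 0.462 and 0.588 for injured input 1. By share of counts without Yam1, members held 0.778, 0.924 and 1.86% in injured nucleolin IPs and 1.82, 2.68 and 2.45% in injured inputs, which overlapped. The other 3 pairs were apart on that share: 0.624 to 1.54% in naive nucleolin IPs, 0.191 to 1.17% in injured PTBP1 IPs and 0.362 to 1.78% in naive PTBP1 IPs, where the inputs of the same condition held 1.81% or more. With Yam1 counted, injured input 1 held 1.12%, below the 1.79% of injured nucleolin IP 3 and the 1.15% of injured PTBP1 IP 3.

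Blocked IPs, the background, were also below input on the TMM scale. Summed levels were 16151, 10114 and 17775 CPM in injured and 13776, 9719 and 19461 CPM in naive blocked nucleolin IPs. Those of blocked PTBP1 IPs were 10345, 11794 and 10922 CPM in injured and 15156, 8653 and 15664 CPM in naive nerve. No blocked library reached the lowest input of its panel on that scale. By share of counts without Yam1, injured blocked nucleolin IP 3 with 2.26% and naive blocked PTBP1 IP 3 with 1.87% lay above the 1.82 and 1.81% of injured input 1.

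**Figure D3:**
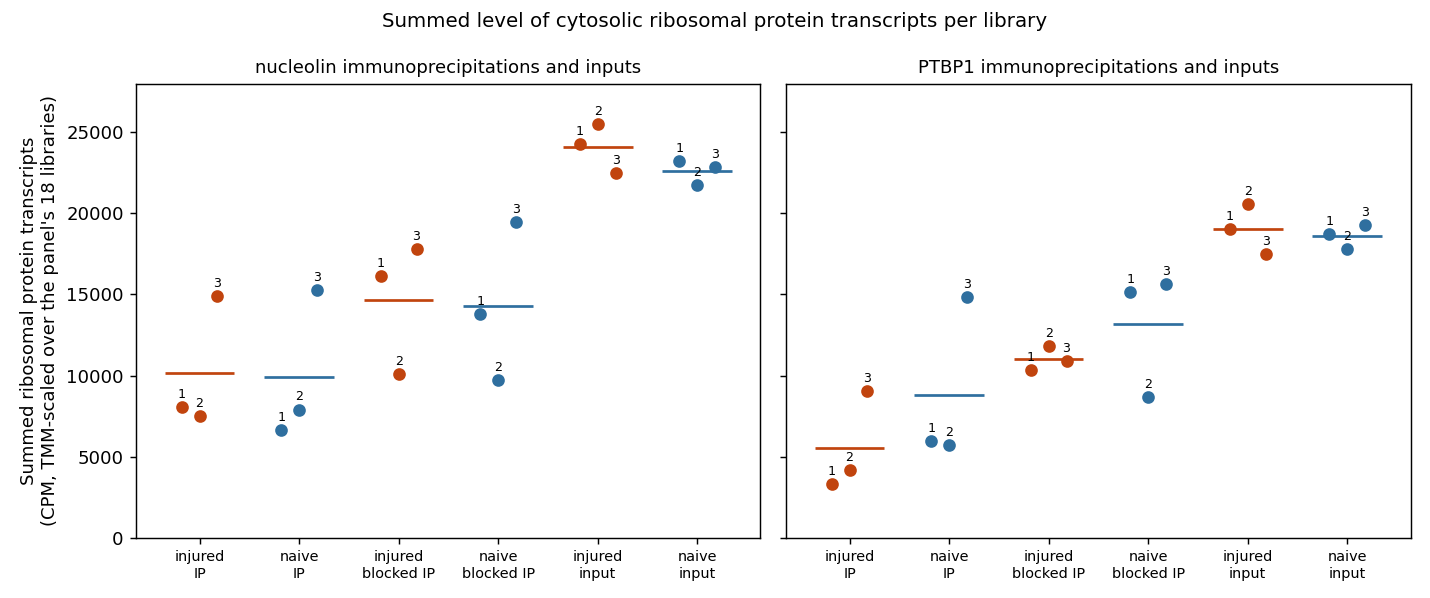
Summed level of the ribosomal protein transcripts (CPM) in each library, with the replicate number above each point and horizontal lines at group means, for 128 transcripts in the nucleolin panel and 147 in the PTBP1 panel. Inputs stand at 17492 CPM or more, and no IP library reaches the lowest input of its panel on this TMM scale.

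The single transcripts showed the same direction, with few that passed. For injured PTBP1 IP over injured input the median log2 fold change of 147 members was -1.54, against -0.06 for all transcripts tested, and 88 members (59.9%) had all IP libraries below all inputs, against 17.0% of the 12393 transcripts tested. Related lists were low as well. Mitochondrial ribosomal protein transcripts had a median of -1.35, and 58.2% had all IPs below all inputs. The list of ribosome partners and other TOP mRNAs had a median of -1.16 and a share of 47.9%. At an edgeR adjusted p under 0.05, 2 members fell, against a background of 0.0646% lower. Rps12 had 252, 322 and 776 CPM in injured PTBP1 IPs and 3193, 3238 and 2157 CPM in injured inputs (log2 fold change -2.67 ± 0.56, adjusted p = 0.032). Rpl35 had 8.31, 6.91 and 16.8 CPM in injured PTBP1 IPs and 88.5, 59.3 and 75.3 CPM in injured inputs (log2 fold change -2.80 ± 0.63, adjusted p = 0.0422). Both calls were lost when injured PTBP1 IP 1 or 2 or any injured input was left out, and with plain library totals. Without injured PTBP1 IP 3 there were 18 calls, a count that was not set against the share of all transcripts called in that fit. An unadjusted p under 0.05 and a lower level were found for 48 members (32.7%), against 3.36% of all.

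For naive PTBP1 IP over naive input no member passed in edgeR or in DESeq2, where 0.256% of all transcripts were called lower by DESeq2. Among members, 14 had an unadjusted p under 0.05, 12 of them lower (8.16%, against 1.93% of all). The background of adjusted calls was 0.00807% lower. The median was -0.91, against -0.04 for all, and 34 members (23.1%) had all IPs below all inputs, against 13.3%. The smallest p values were of Rps12 (-1.62), Rpl35 (-1.53), Rpl17 (-1.33), an Rps27a processed transcript (2.72) and Rpl37a (-1.20), with adjusted p of 0.312 or more.

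For injured nucleolin IP over injured input no member passed in edgeR, while 30 had an unadjusted p under 0.05, all of them lower. DESeq2 called 14 lower, 18.4% of the 76 to which it gave an adjusted p, against 3.33% of all transcripts. The background of adjusted calls was 0.0367% lower. The background of unadjusted p under 0.05 and lower was 6.51%, and the members' share was 23.4%. The median was -0.87, against 0.04 for all, and 48 members (37.5%) had all IPs below all inputs, against 15.5%. Replicate numbers paired these libraries by the correlation check, and with the number as a block 14 members fell (10.9%), against 1.76% of all transcripts. Among them were Rps28, Rps13, Rplp1, Rpl39, Rps12, a retained-intron form of Rps21, Rps29, Rps26, Rps24, Rpl32, Rpl37a, Rpl37 and Rps15, by 1.25 to 2.96 on the log2 scale. Without injured nucleolin IP 3 there were 10 calls, again not set against the share of all transcripts in that fit. Without the block, Rps12 had 1009, 899 and 1086 CPM in injured nucleolin IPs and 4084, 4014 and 2776 CPM in injured inputs (log2 fold change -1.86 ± 0.41, adjusted p = 0.0543). Rps24, Rps15, a retained-intron form of Rps21, and Rps28 followed it, at -1.32, -1.19, -1.74 and -2.86.

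For naive nucleolin IP over naive input no member passed in edgeR, 37 had an unadjusted p under 0.05, 35 of them lower (27.3%, against 4.21% of all), and DESeq2 called 11. Of these, 10 were lower (9.52% of 105 with an adjusted p), against 0.746% of all transcripts. The background of adjusted calls was 0.00918% lower. The median was -0.94, against 0.09 for all, and 53 members (41.4%) had all IPs below all inputs, against 11.4%. The smallest p values were of Rps12 (-1.62), Rpl37a (-1.53), Rps23 (-1.58), a retained-intron form of Rps14 (-3.19) and Rps15 (-1.06), with adjusted p from 0.0731 to 0.153. Without naive nucleolin IP 3 there were 14 calls, also not set against the share of all transcripts in that fit. Median log2 fold changes were below those of all transcripts in both subunits: -1.01 for large and -1.19 for small in injured, and -1.19 and -1.21 in naive nerve. Mitochondrial ribosomal protein transcripts had medians of -0.74 in injured and -0.47 in naive nerve.

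Comparing an IP with its own blocked IP asks which mRNAs depend on the antibody's binding site. No member passed in any of the 4 comparisons in edgeR, and no transcript of any kind did, a background of 0.0% over 11840 transcripts for nucleolin and 14540 for PTBP1. Medians of the members were -0.44 for nucleolin in injured and -0.52 in naive nerve, against -0.06 and -0.11 for all transcripts. For PTBP1 they were -0.82 in injured and -0.59 in naive nerve, against 0.02 and 0.05. On the TMM scale all 3 injured PTBP1 IPs summed below all 3 injured blocked IPs, narrowly (9344 CPM in IP 3 and 9501 CPM in blocked IP 1). The other 3 pairs of groups overlapped. By share of counts without Yam1 the injured PTBP1 pair overlapped too, with 1.17% in IP 3 and 1.10% in blocked IP 1. Unadjusted p under 0.05 was reached by 0 and 5 members for nucleolin and by 7 and 5 for PTBP1, in injured and naive nerve in turn. Lower in the IP with such a p were 0, 4, 5 and 0 members in that order, against 1.08, 3.69, 1.71 and 1.51% of all transcripts, and DESeq2 called 0, 2, 3 and 1 members in the same order, against 2.68, 6.51, 6.52 and 7.94% of all transcripts in either direction. The spread was wide: the median standard error of a member's log2 fold change was 0.90 in the nucleolin and 1.45 and 1.44 in the PTBP1 comparisons, against 0.51 between inputs.

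Rpl8 and Rps23 were among the members with the smallest p values. Rpl8 had 241, 290.3 and 498 CPM in naive nucleolin IPs and 864, 627 and 659 CPM in naive blocked IPs (log2 fold change -1.06 ± 0.40, adjusted p = 0.287). Rps23, a protein of the decoding centre, had 85.7, 143 and 206 CPM in injured PTBP1 IPs and 470.4, 782 and 195 CPM in injured blocked IPs (-1.73 ± 0.64, adjusted p = 0.256). The groups of Rpl8 did not overlap and those of Rps23 did. Rpl22 was lower in IPs than in blocked IPs for nucleolin in both conditions, at -0.97 and -1.04, with adjusted p of 0.777 and 0.395. The smallest p values in the PTBP1 comparisons otherwise fell on scarce forms: a retained-intron form of Rpl28 had 0.0843, 3.03 and 0.688 CPM in injured PTBP1 IPs and 20.9, 9.01 and 1.03 CPM in naive ones, and was listed at 0 in all 6 blocked libraries.

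**Figure D4:**
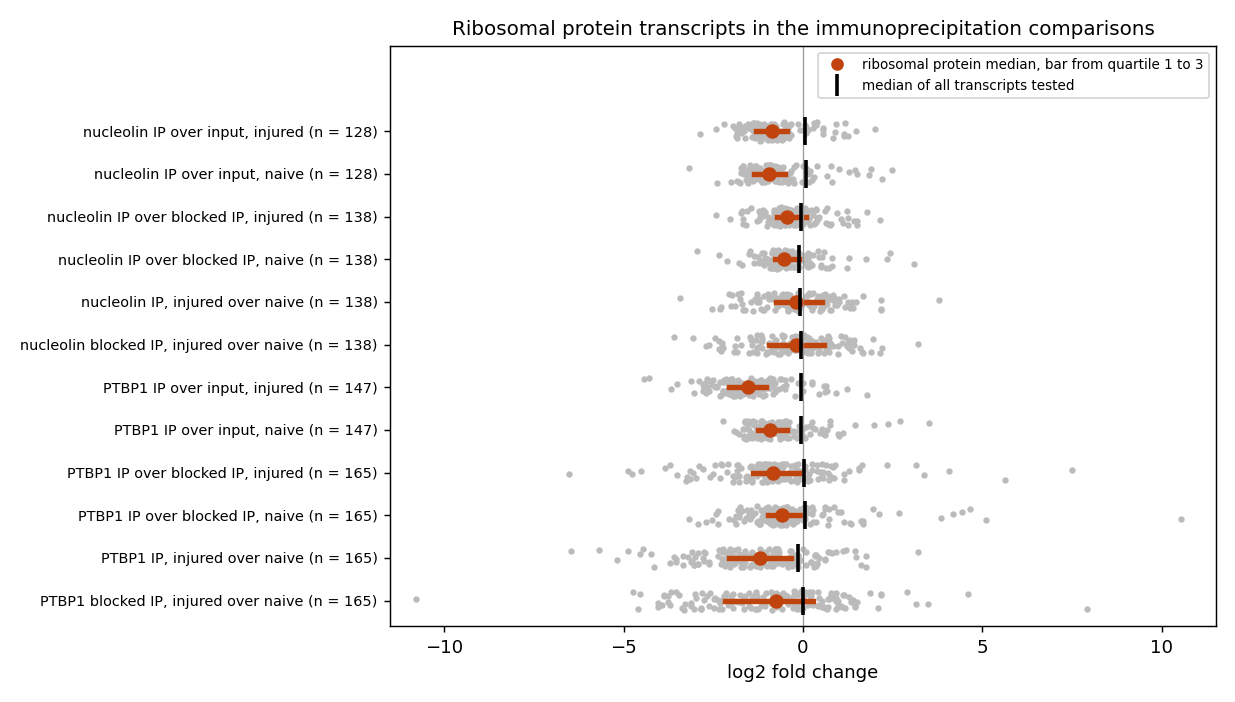
Log2 fold change of every tested ribosomal protein transcript (grey points) in 12 comparisons, with the members' median and quartiles in orange and the median of all transcripts tested as a black tick. Members lie furthest from that tick for injured PTBP1 IP over input, with a median of -1.54 against -0.06.

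Between injured and naive immunoprecipitates, free or blocked, the 1 member called by edgeR was Rps24. The Rps24 transcript ENSMUST00000169826 had 355, 309 and 401 CPM in injured nucleolin IPs and 64.1, 68.3 and 104 CPM in naive ones, and rose by 2.17 ± 0.37 (adjusted p = 0.0256). Its blocked nucleolin IPs had 399.7, 334 and 462 CPM in injured and 90.8, 84.4 and 144 CPM in naive nerve, and it rose there by 1.90 ± 0.36 (adjusted p = 0.0287). It was the 1 member called in either comparison (0.725% of 138 in each), where 0.397 and 0.735% of all transcripts rose. In PTBP1 IPs it had 100.1, 134 and 248 CPM in injured and 30.1, 32.3 and 95.6 CPM in naive nerve (log2 fold change 1.61 ± 0.67, adjusted p = 0.413). In blocked PTBP1 IPs it had 345, 326 and 333 CPM in injured and 75.7, 37.3 and 108 CPM in naive nerve (2.18 ± 0.68, adjusted p = 0.127).

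In all 5 materials, input included, every injured library held more of this transcript than every naive one. The 2 calls in nucleolin libraries each held in 7 of 13 alternatives and were lost when library 1 or 2 of either group, or injured nucleolin IP 3 for the IPs, was left out, with adjusted p up to 0.14 and 0.155. The other Rps24 transcript, ENSMUST00000112384, overlapped between conditions in nucleolin IPs, where it had 36.3, 28.6 and 40.0 CPM in injured and 26.7, 24.5 and 57.9 CPM in naive nerve. It also overlapped in both kinds of blocked IP and in PTBP1 IPs, with log2 fold changes of -0.06 to -0.76.

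Rpsa and Rps12, both called in input, were not called in nucleolin IPs without a replicate block. Rpsa had 697, 658 and 964 CPM in injured nucleolin IPs and 274, 273 and 426 CPM in naive ones (log2 fold change 1.25 ± 0.39, adjusted p = 0.178). With the replicate number as a block in edgeR, Rpsa was called as well (adjusted p = 0.0498), for 2 calls in all, where 1.3% of all transcripts rose. The same-number correlations passed the check here, but not every library correlated best with the one of its own number. Whether the numbers pair these libraries is therefore uncertain. Rps12 had 1109, 1010 and 1219 CPM in injured and 309, 362 and 685 CPM in naive nucleolin IPs (1.30 ± 0.49, adjusted p = 0.272). In blocked nucleolin IPs Rpsa and Rps9 had log2 fold changes of 1.37 and 2.14, with adjusted p of 0.0946 and 0.119.

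In PTBP1 libraries the members' medians lay below those of all transcripts. The median log2 fold change of injured over naive was -1.20 for PTBP1 IPs, against -0.14 for all transcripts, and -0.76 for blocked PTBP1 IPs, against -0.01. No member passed in edgeR in either, where 0.00688 and 0.0275% of all transcripts did. An unadjusted p under 0.05 was found for 15 and 17 members, 14 of them lower in each (8.48% of those tested). Of all transcripts, 5.36 and 10.9% had such a p and were lower, so in blocked IPs the members' share was below the background. DESeq2 called 4 and 18 members. Of these, 4 and 15 were lower (2.47 and 9.26% of 162 with an adjusted p), against 2.3 and 8.9% of all transcripts. All injured libraries lay below all naive ones for 39 of 165 members (23.6%) in PTBP1 IPs and 51 (30.9%) in blocked ones, against 13.8 and 11.3% of all transcripts. For mitochondrial ribosomal protein transcripts these shares were 17.3 and 34.6%, with medians of -1.01 in PTBP1 IPs and -1.59 in blocked ones. Rpl36 had 19.8, 26.1 and 65.9 CPM in injured and 131, 102 and 254 CPM in naive PTBP1 IPs (-2.12 ± 0.66, adjusted p = 0.283). Rps27 had 63.0, 45.7 and 188 CPM in injured and 256, 215 and 625 CPM in naive PTBP1 IPs (-1.89 ± 0.69, adjusted p = 0.338). Rps25 had 128, 118 and 191 CPM in injured and 612, 501 and 588 CPM in naive blocked PTBP1 IPs (-1.96 ± 0.76, adjusted p = 0.163). In nucleolin libraries the medians were -0.18 for IPs and -0.20 for blocked IPs, against -0.08 and -0.05 for all transcripts.

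Whether injury changed the enrichment of an IP over its blocked IP was asked by the interaction of the 2 factors. No member and no other transcript passed for either antibody in edgeR (0.0%), and DESeq2 called no member, against 0.171% of all transcripts for nucleolin and 3.06% for PTBP1. In edgeR 1 member for each antibody had an unadjusted p under 0.05, against 2.55% of all transcripts for nucleolin and 7.89% for PTBP1. These were a retained-intron form of Rps14 for nucleolin (3.89 ± 1.30) and a decay form of Rps19 for PTBP1, which was listed at 0 in the 3 injured blocked libraries. Medians of the members were 0.04 for nucleolin and -0.26 for PTBP1, against 0.04 and -0.08 for all transcripts. The median standard error was 1.26 and 2.05 on the log2 scale, so changes of several fold would not be detectable for most members.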

How the data were processed

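The authors deposited whole-number read counts per Ensembl transcript, as the file headers show; the columns used are raw, and 126 other columns of per-sample values were not used. Per the submitters' processing notes, CASAVA 1.8.2 and edgeR were used, with builds mm10 and GRCm38; no label or header names the aligner, the counter, its strand setting or the annotation. The tables were filtered on low counts before deposit, so totals are not full depth. A column of blocked library 3 whose name carries PCP was taken as that library.

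The test was the quasi-likelihood test of edgeR 4.0.16 (R 4.3.3; two-sided, TMM, filterByExpr, Benjamini-Hochberg over all transcripts tested, adjusted p 0.05). The 6 inputs, the 12 libraries of an antibody, and those 12 with the 6 inputs were each fitted together, on the transcripts their tables share. CPM are TMM-scaled. DESeq2 1.42.0, other scalings, no filter, gene sums, a replicate block and leaving out libraries were alternatives. The scripts were tested on simulated data. GENCODE M21, which held 97.8% of the identifiers, gave transcript classes and sequences.

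Replicate numbers were taken to pair libraries where all 3 same-number correlations of deviations exceeded 0.1: nucleolin IP injured against naive (0.332, 0.119, 0.555), injured nucleolin IP against input (0.152, 0.178, 0.203) and injured PTBP1 IP against blocked (0.113, 0.142, 0.313). In the first of these, unlike the others, not every library correlated best with the one of its own number.

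The members and lists were chosen with earlier results of these data known. Named were up to 10 called transcripts per direction, the 5 with the smallest p where none was called, the stalk proteins and Rpsa, the 8 highest and 4 lowest levels, paralogs, and genes whose coding and non-coding forms differed most. Some members that this rule names are not reported here.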

Additional observations from a re-analysis of the deposited data

How the results depend on the processing

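Counts of called members depended on the fit, and the causes were not tested. Where no share of all transcripts called in the same fit is given, a count in this section does not show a change particular to the members. In input, 34 calls became 19 with library totals, and 15 to 33 over the fits that leave out 1 library. With DESeq2, calls were 14 (nucleolin, injured) and 11 (nucleolin, naive) for IP over input and 25 for injured PTBP1 IP over input. With DESeq2 there were also 5 for nucleolin IP and 7 for blocked nucleolin IP between conditions, 4 and 18 for PTBP1 IP and blocked IP, 2 for naive nucleolin IP over blocked, and 3 and 1 for injured and naive PTBP1 IP over blocked. With the replicate block, calls were 39 in input, 2 and 3 for nucleolin IP and blocked IP between conditions, 14 and 14 for nucleolin IP over input, and 9 for injured PTBP1 IP over input. It moved no other count of calls, and outside the 3 comparisons whose numbers were taken to pair libraries the samples share only a number. With only the 6 libraries compared, calls were 0 for blocked nucleolin IP between conditions, 15 for injured nucleolin IP over input and 20 for injured PTBP1 IP over input. That last comparison had 0 calls with library totals, and DESeq2 size factors gave 1 for injured nucleolin IP over input.

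Leaving out every library numbered 3, chosen after seeing the data, gave 0 calls for both nucleolin comparisons between conditions, 16 and 19 for nucleolin IP over input, and 14 and 1 for PTBP1 IP over input (injured, naive). Leaving out 1 library gave 0 to 1 and 0 to 2 calls for nucleolin IP and blocked IP between conditions. It gave 0 to 10 and 0 to 14 for nucleolin IP over input, and 0 to 18 and 0 to 2 for PTBP1 IP over input (injured, naive). Signs turned for 4 uncalled transcripts: Rplp2 ENSMUST00000084434 (0.0065 without Yam1, Lars2 and Gm15564 in the totals, and -0.86 to 0.58 when 1 library was left out), Rplp2 ENSMUST00000106003 (-0.73 to 0.093 when 1 library was left out), Rps19 ENSMUST00000153451 (-9.67 to 3.27 for injured PTBP1 IP over blocked when 1 library was left out) and Rpl41 ENSMUST00000176966 (-6.28 to 0.72 for the PTBP1 interaction when 1 library was left out). Of 1249 refits of named transcripts, 1072 kept direction and side of the threshold.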

Other observations

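Rows named as processed pseudogenes of ribosomal protein genes were outside the rule. In the inputs, 66 such rows summed to 469, 576 and 349 CPM in injured nerve and 264, 233 and 275 CPM in naive nerve, and the groups did not overlap. The summed level of the members themselves overlapped between the same libraries. Reads shared between a gene and its pseudogene copies cannot be told apart in these tables.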
